A study of Homo sapiens with 34 samples.

Results

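A bidirectional promoter drives 2 protein-coding genes that lie head to head on opposite strands. Of 19970 protein-coding genes on chromosomes 1 to 22 and X in GENCODE 44 (hg38), 1895 (9.49%) had a canonical transcription start site (TSS) that diverged from that of another protein-coding gene on the opposite strand at most 1000 bp away. They formed 984 pairs, which are written here as minus-strand gene/plus-strand gene. The region of a pair ran from one TSS to the other with 500 bp added on each side, and a promoter was counted as bound in a peak list if a peak summit fell inside it. The remaining 18075 genes served as single promoters, each the 500 bp on either side of its TSS, so that 984 of 19059 promoters were bidirectional. The pairs lay at 912 places that did not overlap, since 72 genes belonged to more than 1 pair, and 79 pairs included a readthrough gene. The distance between the start sites of a pair had a median of 233.5 bp (quartiles 122 and 402 bp, range 11 to 1000 bp).

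In such promoters a single stretch of open, usually CpG-rich and TATA-less chromatin serves both directions of transcription. Head-to-head genes are known to be rich in housekeeping functions, among them DNA repair, chaperones, mitochondrial proteins and replication-dependent histones, and both partners are often expressed together. RBPJ binds DNA and recruits the NOTCH intracellular domain to target genes. SOX2, known from stem cells, contacts DNA with its HMG box.

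The data were chromatin immunoprecipitations followed by sequencing (ChIP-seq) in MB157R and MB157 cells. MB157 is a triple-negative breast cancer line driven by NOTCH, and MB157R is its derivative after 25 weeks in 1 µM of the γ-secretase inhibitor LY3039478, which blocks release of the NOTCH intracellular domain. MB157R cells carried a doxycycline-inducible lentiviral vector for HA-tagged NOTCH1 without its extracellular part (iN1-ICD) or an empty one (iEV), and MB157 cells one for HA-tagged SOX2 (iSOX2) or an empty one (iEV). All cells, those with the empty vector included, had received 1 µg/ml doxycycline for 72 h. RBPJ was precipitated in all 4 conditions, SOX2 in MB157R iN1-ICD and MB157R iEV, and HA in MB157 iSOX2 and, as a control, MB157 iEV, in 3 libraries per group except for the HA control with 1. With 12 inputs there were 34 libraries. The files hold no expression values, so the cell lines could not be checked by their markers and it is not known which of the genes were active.

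Peaks had been called once per group on pooled libraries, which gave 8 lists. No difference between conditions could therefore be set against a spread between replicates, and intervals given here are 95% intervals for counting error only (exact binomial for a share). The lists held 37297 (RBPJ, MB157R iN1-ICD), 46601 (RBPJ, MB157R iEV), 34521 (RBPJ, MB157 iSOX2), 25243 (RBPJ, MB157 iEV), 323 (SOX2, MB157R iN1-ICD), 37963 (SOX2, MB157R iEV), 108203 (HA, MB157 iSOX2) and 77 peaks (HA, MB157 iEV) on these chromosomes. The fold of a peak is the enrichment of fragments at its summit over the local input background. The median peak rested on 15 to 23 fragments at its summit, depending on the list.

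Motif sites at the strongest summits are shown first, because they are where the folds peaked. The RBPJ motif was searched as TGTGGGAA, CGTGGGAA, TGTGAGAA and CGTGAGAA on both strands. In the 150 bases around the strongest summit, 6 of the 10 pairs of highest RBPJ fold in MB157R iEV or MB157 iEV held it. Of 150-base windows at the midpoints of all pairs, which are not centred on summits, 1.34% held it. In a wider window, within 100 bp of the strongest summit, 6.23% of summits at pairs held it in MB157R iEV and 10.1% in MB157 iEV. The 30 bases around the site are given 5′ to 3′ on the strand that carries the motif, which is in capitals.
RETREG3/TUBG1, chr17:42609287-42609316, plus strand: gggcctggggtCGTGGGAAccccttcggcc
TRADD/FBXL8, chr16:67159851-67159880, minus strand: agcctggcgggCGTGGGAAcccaggccccg
OSGEP/APEX1, chr14:20455644-20455673, plus strand: gaatgccgaagCGTGGGAAaaagggagcgg
IKBIP/APAF1, chr12:98644766-98644795, plus strand: gccttggcgttCGTGGGAAccctgggcggt
PROSER1/NHLRC3, chr13:39038102-39038131, plus strand: tggggtcctggTGTGGGAAtataggcatcc
RECQL5/SAP30BP, chr17:75667350-75667379, plus strand: cacgcccgggcTGTGGGAAtaagatggcgg
The letters CGTGGGAA stood at 4 of these 6 sites and TGTGGGAA at the other 2. The centre of the motif lay between 1 and 52 bp from the summit. ZNF597/NAA60, TPR/ODR4 and EARS2/UBFD1, also among the pairs of highest fold, did not hold these letters in the window.

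The SOX motif was searched as ACAATG and ACAAAG. Of the 11 pairs of highest SOX2 or HA-SOX2 fold, 8 held it within the same window, against 7.1% of windows at the midpoints of all pairs. At FAM227A/CBY1, the pair with the highest SOX2 fold, and at UFD1/CDC45 the 30 bases around the site were as follows.
FAM227A/CBY1, chr22:38656349-38656378, plus strand: ccgtttagcataACAATGgaaccttcgtga
UFD1/CDC45, chr22:19479415-19479444, minus strand: gtagtcgtaaggACAATGggccctactaaa
At RSF1/AAMDC the summit lay between the start sites, and the stretch around it without an annotated exon is given on the plus strand. Its capitals mark a SOX and an NFY motif (GCCAAT) that adjoin each other, and on either side of them an SP motif (GGGGCGGGG).
RSF1/AAMDC, chr11:77821007-77821108: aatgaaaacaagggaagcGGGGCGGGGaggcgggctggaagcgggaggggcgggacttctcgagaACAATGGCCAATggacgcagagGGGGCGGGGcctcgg
CEP170/SDCCAG8 held ACAATG at 2 places in the stretch around its SOX2 summit.
CEP170/SDCCAG8, chr1:243255349-243255464: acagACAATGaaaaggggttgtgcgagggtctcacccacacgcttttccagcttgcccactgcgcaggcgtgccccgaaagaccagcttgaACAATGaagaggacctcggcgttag

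Bidirectional promoters held a summit more often than single promoters in each of the 6 larger lists. For RBPJ in MB157R iEV, 871 of 984 pairs (88.5%, 86.4 to 90.4%) were bound, against 47.5% of single promoters. In MB157R iN1-ICD it was 699 pairs (71%, 68.1 to 73.9%), against 34.2% of single promoters. In MB157 iSOX2 it was 771 pairs (78.4%, 75.7 to 80.9%), against 40.4%, and in MB157 iEV 587 pairs (59.7%, 56.5 to 62.7%), against 29.0%. SOX2 in MB157R iEV was found at 357 pairs (36.3%, 33.3 to 39.4%), against 16.7% of single promoters. HA-SOX2 in MB157 iSOX2 was found at 499 pairs (50.7%, 47.5 to 53.9%), against 24.3%. The share at pairs was thus 1.86 (1.81 to 1.91, RBPJ in MB157R iEV) to 2.17 times (1.98 to 2.37, SOX2 in MB157R iEV) that at single promoters in these 6 lists.

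The other 2 lists were nearly empty at promoters. SOX2 in MB157R iN1-ICD had a summit at 1 pair, FAM227A/CBY1, and at 0.0609% of single promoters. The HA control of MB157 iEV had none at the pairs, where 0 of 984 allows a share of up to 0.305% by a limit of 3 counts (0.374% by the exact interval), and at single promoters the share was 0.0277%.

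**Figure D1:**
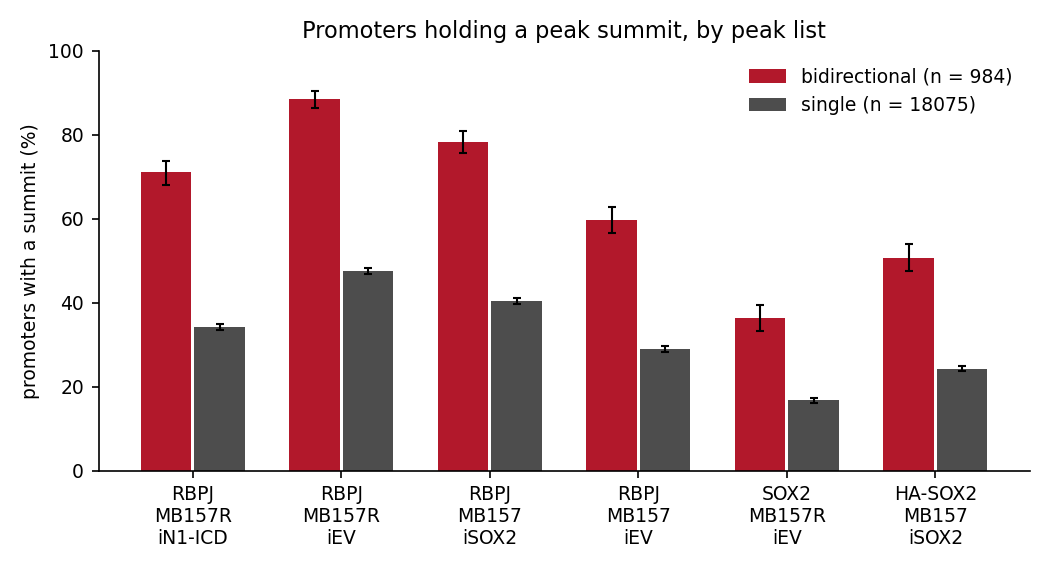
Percent of bidirectional promoters (red, n = 984) and of single promoters (grey, n = 18075) holding a peak summit, in each of the 6 larger peak lists. Bars are shares and whiskers exact 95% intervals. In each list the red bar is about 2 times the grey one, with 88.5% against 47.5% for RBPJ in MB157R iEV.

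The regions of pairs were longer, with a median of 1234.5 bp against 1001 bp for single promoters, and each contained 2 start sites. Each TSS was therefore also taken alone in a window of 1001 bp, a choice made after seeing the data. A summit of RBPJ in MB157R iEV then lay at 1491 of 1895 TSSs of pairs (78.7%, 76.8 to 80.5%), and one of SOX2 at 630 (33.2%, 31.1 to 35.4%). The ratio to single promoters was 1.66 (1.61 to 1.7) for RBPJ in MB157R iEV, 1.78 (1.69 to 1.87) for RBPJ in MB157 iEV and 1.99 (1.85 to 2.13) for SOX2. Per kb, regions of pairs held 0.71 RBPJ summits in MB157R iEV, against 0.487 in single promoters, and 0.287 SOX2 summits, against 0.169.

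The ratio was smaller among CpG islands than over all promoters. By the rule of at least 50% GC and an observed-to-expected CpG ratio of at least 0.6 in the 1001 bp around a TSS, 91% of pairs (at their minus-strand TSS) but 62.1% of single promoters were CpG islands. Among CpG islands alone, the ratio of the shares was 1.35 (1.32 to 1.38) for RBPJ in MB157R iEV, 1.53 (1.46 to 1.6) in MB157R iN1-ICD, 1.4 (1.35 to 1.45) in MB157 iSOX2 and 1.48 (1.4 to 1.57) in MB157 iEV. It was 1.71 (1.55 to 1.87) for SOX2 and 1.63 (1.52 to 1.75) for HA-SOX2. Among TSSs with a CpG ratio from 0.6 to 0.8, RBPJ summits of MB157R iEV lay at 81.6% of 885 TSSs of pairs (78.9 to 84.1%), against 66.5% of 5629 single TSSs (65.3 to 67.8%). From 0.4 to 0.6 they lay at 72.5% of 109 TSSs of pairs (63.1 to 80.6%), against 32.4% of 1677 single ones (30.1 to 34.7%), so that the classes were further apart in this bin than over all TSSs (78.7% against 47.5%). Below a ratio of 0.2, only 1 of 13 TSSs of pairs held one, against 4.92% of 2112 single TSSs. At a ratio of 1 or more the intervals of the 2 classes overlapped in all 6 lists, with 51 TSSs of pairs. Within single promoters the CpG ratio was far higher at those bound by RBPJ in MB157R iEV than at those not bound, with medians of 0.785 and 0.441, whereas among pairs the medians were 0.784 and 0.758. The part of CpG content in the difference was not tested further.

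**Figure D2:**
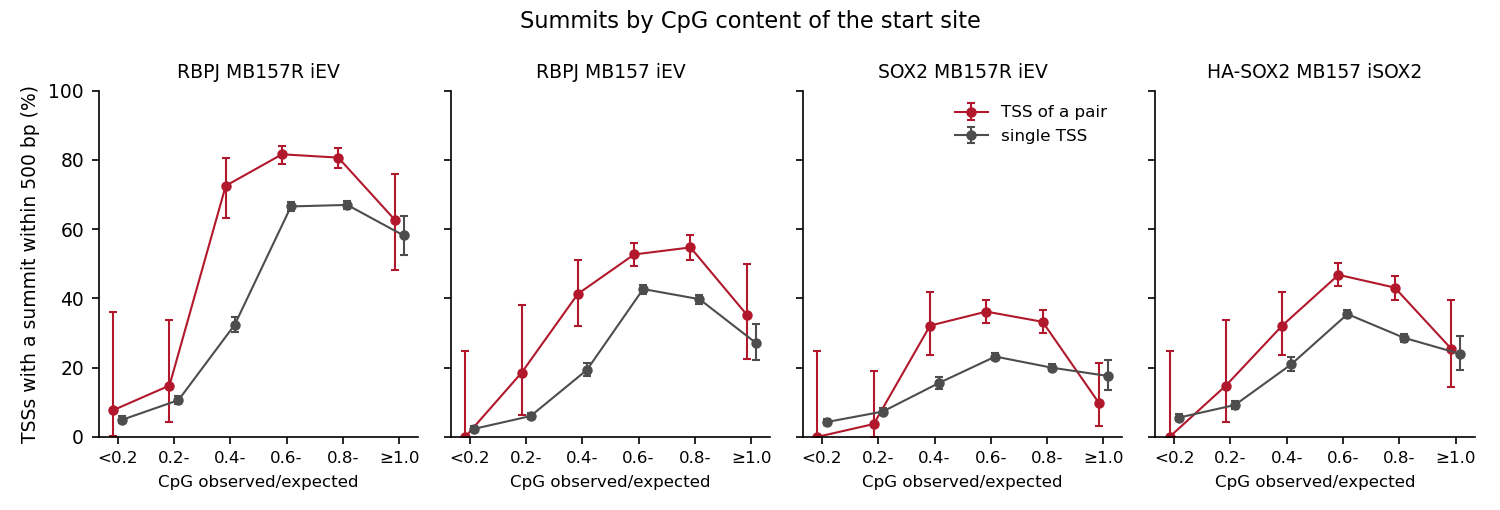
Percent of TSSs with a summit within 500 bp, for TSSs of pairs (red) and single TSSs (grey), in bins of the observed-to-expected CpG ratio of the same window (each tick gives the lower bound of a bin). Whiskers are exact 95% intervals. The red points lie above the grey ones between 0.4 and 1, with 72.5% against 32.4% for RBPJ in MB157R iEV at 0.4 to 0.6.

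Promoters with other kinds of neighbour were bound by RBPJ in MB157R iEV at shares between those of all TSSs of pairs (78.7%) and of TSSs with no diverging partner. Windows of equal width around 1867 single TSSs with a diverging lncRNA TSS within 1000 bp held a summit of RBPJ in MB157R iEV at 70.7% (68.5 to 72.7%), and of SOX2 at 25.5% (23.5 to 27.5%). The 15884 single TSSs with no diverging partner held them at 44.6% and 15.7%. For RBPJ, between these stood the 112 TSSs whose transcripts overlapped another protein-coding one head to head (63.4%, 53.8 to 72.3%) and the 212 TSSs that diverged from another by more than 1000 and up to 2000 bp (52.8%, 45.9 to 59.7%). For SOX2 the order did not hold, since the TSSs with a head-to-head overlap had 24.1% (16.5 to 33.1%) but those diverging by more than 1000 bp 15.1% (10.6 to 20.6%). The last 2 classes were set apart after seeing the data. CpG islands made up 90.8% of the TSSs with a diverging lncRNA, 84.8% of those with a head-to-head overlap, 67.9% of those diverging by more than 1000 bp and 58.5% of those with no diverging partner.

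**Figure D3:**
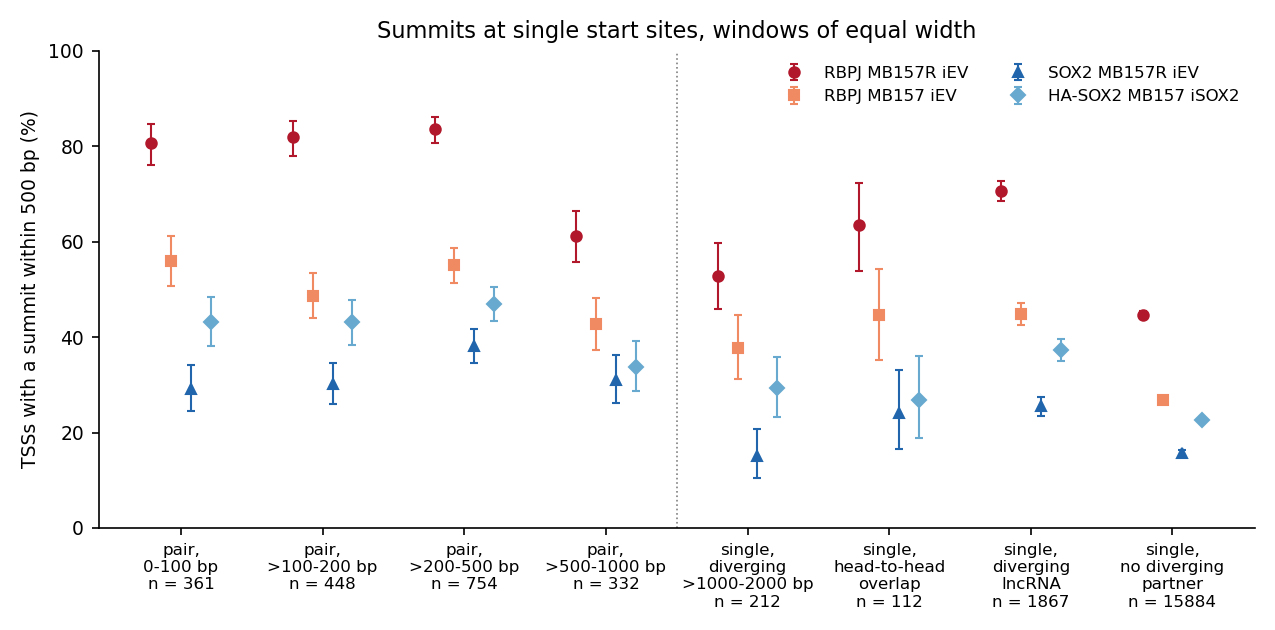
Percent of TSSs with a summit within 500 bp, in windows of equal width, for TSSs of pairs by the distance between the start sites (left of the dotted line) and for 4 classes of single TSSs (right). Points are shares and whiskers exact 95% intervals for 4 peak lists. RBPJ in MB157R iEV falls on 80.6 to 83.6% of TSSs in pairs up to 500 bp apart, on 61.1% in pairs over 500 bp apart, and on 44.6% of single TSSs with no diverging partner.

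Pairs farther apart, whose regions are longer, held a summit of RBPJ in MB157R iEV more often. Per region, it was found at 82.4% of 188 pairs up to 100 bp apart, 85.8% of 232 pairs over 100 and up to 200 bp, 90.8% of 390 pairs up to 500 bp and 93.7% of 174 pairs up to 1000 bp. Per TSS, its share in pairs over 500 bp apart (61.1%, 55.7 to 66.4%) was lower than in the closer ones, where the window also held the partner's TSS. SOX2 was found at 29.8% (23.3 to 36.9%) of the closest pairs and at 43.1% (35.6 to 50.8%) of the widest.

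A bound pair usually held a single summit. In MB157R iEV 835 pairs had 1 RBPJ summit and 36 had 2, so that 4.13% of bound pairs had more than 1, against 2.63% of bound single promoters. In MB157 iSOX2 78 pairs (10.1% of those bound) had more than 1, against 3.25% of bound single promoters. SOX2 had 2 summits at 10 pairs. Of the pairs over 500 bp apart, 13 of 174 had 2 or more RBPJ summits in MB157R iEV and 30 in MB157 iSOX2.

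The stretch between the start sites was 22.9% of the total length of the regions. It held 46.6% (43.4 to 50%) of the 907 RBPJ summits of MB157R iEV, 43.7% (40.2 to 47.3%) of those of MB157R iN1-ICD and, for SOX2 in MB157R iEV, 52.9% (47.6 to 58.1%) of 367 summits. In the lists of MB157 cells it held fewer, with 26.1% (23.2 to 29.2%) of the RBPJ summits in iSOX2, 32.9% (29.2 to 36.7%) in iEV and 31.9% (28 to 36.1%) of the HA-SOX2 summits. For RBPJ, single promoters showed the same order, since 64.1% and 64.4% of RBPJ summits lay upstream of the TSS in MB157R iN1-ICD and iEV, against 53.1% and 56.5% in MB157 iSOX2 and iEV. HA-SOX2 did not, with 64.5% upstream at single promoters. The shortest peak of a list, which in MACS2 follows the estimated fragment length, was 200 and 221 bp in these MB157R lists, against 241 and 226 bp in the MB157 lists. The part of fragment length in the difference was not tested. RBPJ summits of MB157R iEV lay a median of 155 bp from the midpoint of a pair, those of MB157 iEV 237 bp. Outside the stretch between the start sites, summits were spread over both genes, with 249 on the minus-strand gene's side and 235 on the plus-strand gene's side for RBPJ in MB157R iEV.

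**Figure D4:**
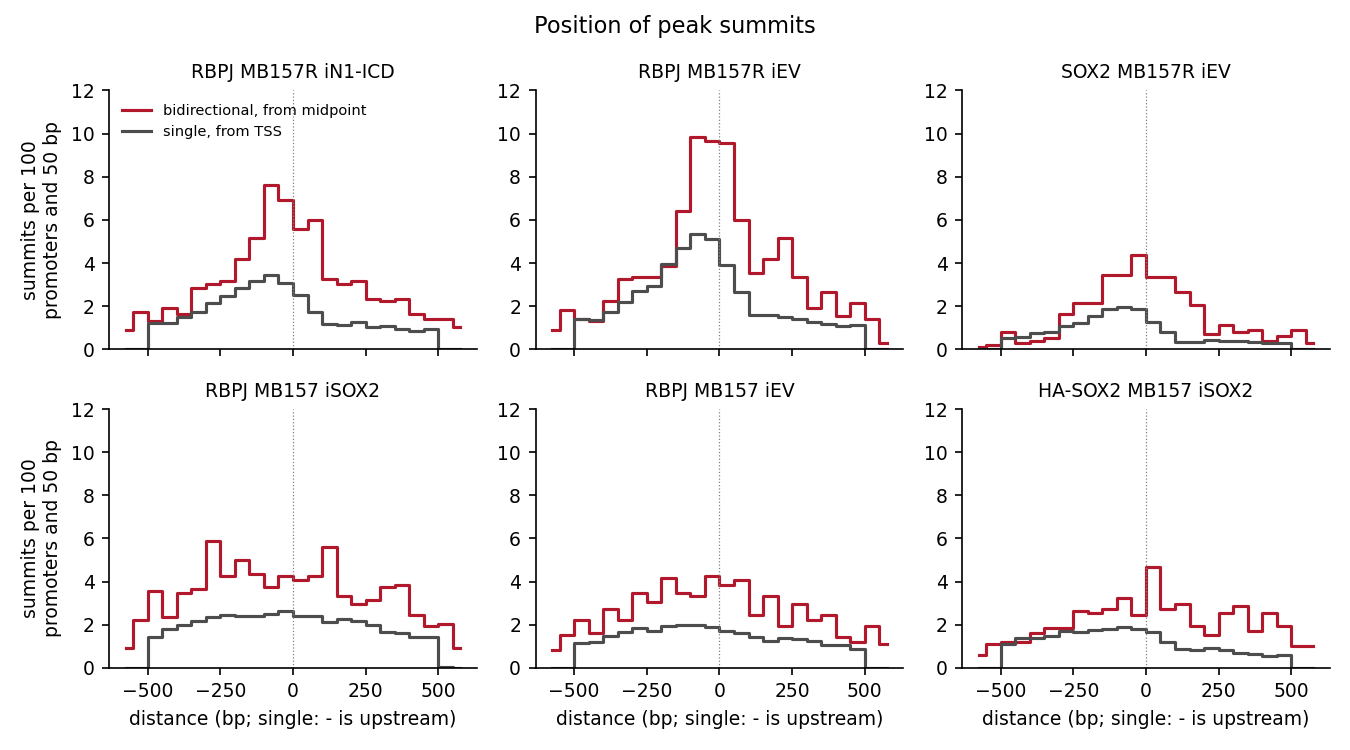
Summits per 100 promoters in bins of 50 bp, against the distance from the midpoint between the start sites for bidirectional promoters (red) and from the TSS for single promoters (grey, negative values upstream). The lists of MB157R cells (top row) peak near the midpoint, and those of MB157 cells (bottom row) are flatter: 38.1% of RBPJ summits at pairs lie within 100 bp of the midpoint in MB157R iEV, against 24.1% in MB157 iEV.

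Once bound, bidirectional promoters were enriched to about the same level as single ones. For RBPJ in MB157R iEV the median fold of the strongest summit was 6.72 at pairs (quartiles 5.25 and 8.52), against 6.23 at single promoters (4.86 and 8.15). In MB157R iN1-ICD the medians were 5.22 at pairs and 5.08 at single promoters, in MB157 iSOX2 4.94 and 4.93, and in MB157 iEV 5.03 and 5.07. For SOX2 they were 4.25 at pairs and 4.38 at single promoters, and for HA-SOX2 3.99 and 4.3. The promoters of highest fold were single ones in all 6 lists, with a maximum of 57.3 at pairs and 133 at single promoters for RBPJ in MB157R iEV. Bound single promoters were far more numerous there (8592 against 871 pairs), which favours a higher maximum. Of bound pairs there, 16.8% were in the top 10% of the list by fold, against 15.1% of bound single promoters. For RBPJ in MB157R iN1-ICD, MB157 iSOX2 and MB157 iEV it was 8.87% against 9.03%, 13.5% against 12.9% and 9.2% against 9.07%. For SOX2 it was 4.2% against 3.64%. Compared with all peaks of its list, the median pair stood at the 71.3rd percentile of fold for RBPJ in MB157R iEV but at the 28.1st for SOX2 and the 19th for HA-SOX2. None of the 499 pairs with HA-SOX2 were in the top 10% of that list by fold, against 0.912% of the bound single promoters. With the HA-SOX2 list shortened to its 25243 peaks of best q, 8 pairs (0.813%) were bound, against 1.01% of single promoters, a ratio of 0.807 (0.399 to 1.63).

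Motifs within 100 bp of the strongest summit were about as frequent at pairs as at single promoters for RBPJ. The RBPJ motif stood at 6.23% of 802 distinct summits at pairs in MB157R iEV (against 6.51% at single promoters) and at 10.1% of 544 in MB157 iEV (against 9.81%), whereas windows of the same length at all midpoints of pairs held it at 1.95%. It went with fold: with bound promoters of both classes cut at the same folds into 3 classes of about equal size, 1.45% of pairs in the lowest class (0.3 to 4.18%), 2.16% in the middle one (0.796 to 4.64%) and 12.9% in the highest one (9.44 to 17.1%) held it in MB157R iEV. For single promoters the shares were 2.31%, 3.53% and 13.8%. The SOX motif stood at 23.6% of 335 SOX2 summits at pairs, against 29.3% at single promoters, and at 20.3% of HA-SOX2 summits, against 27.7%. All midpoints of pairs held it at 9.16%. From the lowest to the highest class of SOX2 fold the share at pairs was 9.09%, 21.6% and 43.4%.

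Other motifs differed in frequency between midpoints of pairs and single promoters, whether or not these were bound. The ETS motif CCGGAAG stood at 24.8% of midpoints of pairs, against 9.28% of windows 100 bp upstream of single TSSs, and the YY1 motif AAGATGGCG at 2.57%, against 0.504%. The NRF1 motif GCGCATGCG stood at 4.53%, against 2.11%. TATAAA was rarer at pairs, with 3.19% against 8.36%, as was the SP motif, with 16.6% against 22.7%. At RBPJ summits in MB157R iEV the ETS motif stood at 19.3% of those at pairs, against 12.1% at single promoters, whereas the intervals of the NRF1, YY1, TATA and SP motifs overlapped there. The 55 pairs with no RBPJ summit in any list held the ETS motif at their midpoints in 16.4% (7.77 to 28.8%). The 453 pairs with a summit in all 4 held it in 25.8% (21.9 to 30.1%), and these intervals overlapped.

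RBPJ was called at most pairs in several conditions. A summit was present in all 4 RBPJ lists at 453 pairs (46%, 42.9 to 49.2%), against 16.3% of single promoters, in 3 lists at 249, in 2 at 142, in 1 at 85 and in none at 55 pairs (5.59%, against 40.7% of single promoters). Among the 55 were SDF4/B3GALT6, PBRM1/GNL3, FOXM1/RHNO1, POLE/PXMP2 and pairs of genes with restricted expression such as ABCG5/ABCG8, the sterol transporters of liver and intestine, and OR11A1/OR2H1, which are olfactory receptors. These examples were chosen after the list had been seen. The most frequent pattern short of all 4 lists was absence from MB157 iEV alone, at 149 pairs, and the next was absence from MB157R iN1-ICD alone, at 71.

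Of the 587 pairs bound by RBPJ in MB157 iEV, 557 (94.9%, 92.8 to 96.5%) were bound again in MB157R iEV, against 81.7% of single promoters. A further 314 pairs were bound in MB157R iEV only and 30 in MB157 iEV only. Of the pairs bound in MB157R iEV, 63.95% were also bound in MB157 iEV, against 49.8% of such single promoters. The MB157R iEV list was the longer one. With both lists shortened to 25243 peaks, 71.5% of pairs were bound in MB157R iEV, against 59.7% in MB157 iEV, and 81.8% (78.4 to 84.8%) of the pairs of MB157 iEV were bound again. Pairs gained in MB157R iEV had a median fold of 5.99 there, below the 7.35 of pairs bound in both.

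NSUN2/SRD5A1, an RNA methyltransferase and a steroid 5α-reductase, was the pair of highest RBPJ fold in MB157R iEV without a peak in MB157 iEV. Its start sites lie at chr5:6633044 and chr5:6633440, and the fold was 13.9 in MB157R iN1-ICD (50 fragments), 23 in MB157R iEV (69 fragments) and 7.99 in MB157 iSOX2 (36 fragments). All 3 summits lay within 18 bp of the midpoint, where the motif CGTGGGAA stood, in capitals in these 30 bases.
NSUN2/SRD5A1, chr5:6633245-6633274, minus strand: ccttgagcccgCGTGGGAAacctgggcgct
The next were THAP10/LRRC49 (18 in MB157R iEV, 6.27 in MB157 iSOX2), WDR12/CARF (16.9 and 7.97), where WDR12 is a factor of ribosome assembly, and SEPTIN10/SOWAHC, with 12.9 in MB157R iEV, 6.68 in MB157R iN1-ICD and no summit in either MB157 list.

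In the other direction ZNF597/NAA60 stood apart. This pair belongs to a locus known to be imprinted in humans. Its RBPJ fold was 29.6 in MB157 iSOX2 (89 fragments) and 22.3 in MB157 iEV (57 fragments), and neither MB157R list had a peak over the region. The summits lay 55 and 59 bp inside ZNF597. Within 100 kb of it, however, there were 3 RBPJ peaks in MB157R iN1-ICD and 4 in MB157R iEV, against 7 in MB157 iSOX2 and 4 in MB157 iEV. CRYAB/HSPB2, a pair of small heat shock proteins, followed with 7.91 in MB157 iSOX2 and 7.02 in MB157 iEV, and H2AC25/H2BC26, a histone pair, with 8.21 and 6.38. HSPA1L/HSPA1A, members of the HSP70 family, had a fold of 5.76 in MB157 iEV on 14 fragments, but HSPA1A shares reads with a near-identical copy and its value is uncertain. Its stretch between the start sites around the summit, chr6:31815376-31815525 on the plus strand, is shown for the TATA motif (TATAAA) upstream of the TSS of HSPA1A, in capitals with an NFY motif read on the other strand. TATAAA was held by 1.54% of 150-base windows at midpoints of pairs.
HSPA1L/HSPA1A: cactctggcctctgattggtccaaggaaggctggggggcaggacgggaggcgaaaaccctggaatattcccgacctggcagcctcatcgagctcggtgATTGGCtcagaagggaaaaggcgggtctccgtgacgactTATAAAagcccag

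Induction of SOX2 in MB157 left most RBPJ pairs in place. Of the 587 pairs of MB157 iEV, 547 (93.2%, 90.8 to 95.1%) were bound in MB157 iSOX2, against 83.5% of single promoters. A further 224 pairs were bound in iSOX2 only, whose list was longer (34521 against 25243 peaks). Of the pairs bound in iSOX2, 70.95% were also bound in iEV, against 59.9% of such single promoters. The pairs bound in MB157 iEV but not in iSOX2 had a lower median fold in iEV (4.13) than those bound in both (5.1). ADAT2/PEX3, a tRNA deaminase subunit and a peroxisome assembly factor, was the pair of highest fold in MB157 iSOX2 (9.21, on 32 fragments) without a peak in MB157 iEV, and it had an HA-SOX2 summit of 10.9 at the exact midpoint of its start sites. NSUN2/SRD5A1 and WDR12/CARF followed, with 7.99 and 7.97. Those bound in MB157 iEV without a peak in iSOX2 were led by IFT140/CRAMP1 (7.68 in MB157 iEV), MRPL21/IGHMBP2 (6.0) and POLL/DPCD (5.76), and each of the 3 also had a summit in MB157R iEV.

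After induction of N1-ICD in MB157R, 675 of the 871 pairs of MB157R iEV (77.5%, 74.6 to 80.2%) were bound, against 63.2% of single promoters. A further 24 pairs were bound in iN1-ICD and not in iEV, and for 5 of them no MB157R iEV peak touched the region. Of the pairs bound in iN1-ICD, 96.6% were also bound in iEV, against 87.9% of such single promoters. The iN1-ICD list was the shorter one (37297 against 46601 peaks). The 196 pairs without a summit in iN1-ICD had a median fold of 5.31 in iEV, against 7.17 for those bound in both. SH3YL1/ACP1 (12.1 in MB157R iEV), DDX51/NOC4L (9.92) and THAP12/GVQW3 (9.7) had the highest folds among them with no peak in iN1-ICD. TMEM234/EIF3I (4.66), XRCC1/PINLYP (4.61) and EXOSC1/ZDHHC16 (4.0) were the highest in iN1-ICD with no peak in iEV. Against MB157 iEV, 482 of 587 pairs (82.1%, 78.8 to 85.1%) were bound in MB157R iN1-ICD, and 67.6% of single promoters. These comparisons share lists, so they are not independent of each other.

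**Figure D5:**
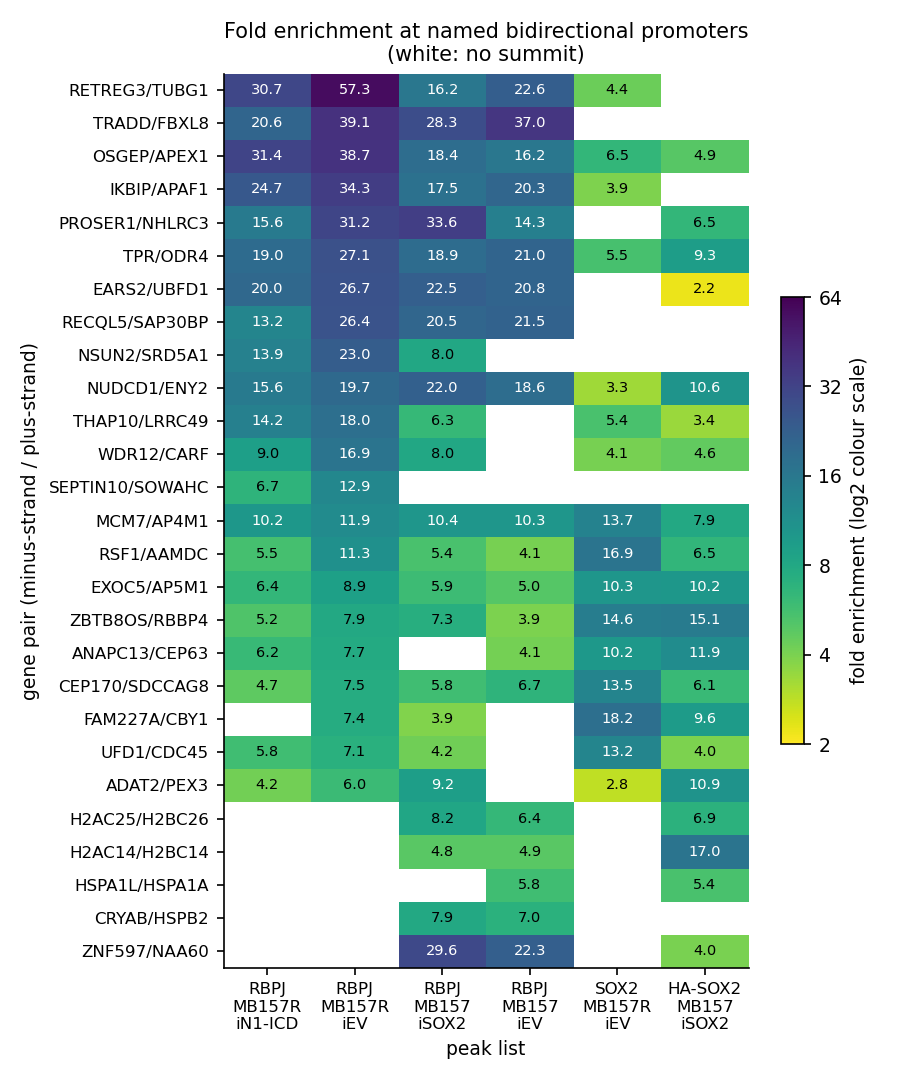
Fold enrichment (numbers and log2 colour scale) at the strongest summit of each list for pairs of highest RBPJ, SOX2 or HA-SOX2 fold and pairs bound by RBPJ in MB157R iEV only or MB157 iEV only. White cells had no summit in the region. RETREG3/TUBG1 reaches 57.3 in MB157R iEV, and the bottom 5 pairs lack RBPJ summits in both MB157R lists.

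The 10 pairs of highest RBPJ fold in MB157R iEV or MB157 iEV were bound in all 4 RBPJ lists, ZNF597/NAA60 excepted. RETREG3/TUBG1, a receptor of endoplasmic reticulum turnover and γ-tubulin, had folds of 30.7 in MB157R iN1-ICD (156 fragments), 57.3 in MB157R iEV (238), 16.2 in MB157 iSOX2 (81) and 22.6 in MB157 iEV (58). Its strongest summits fell 82 to 137 bp inside RETREG3. The motif shown above was centred 10 bp from the summit of MB157R iEV and 28 bp from that of MB157 iEV. The summit of MB157 iSOX2, 137 bp inside, lay outside the 30 bases shown. TRADD/FBXL8, with an adaptor of TNF receptor signalling, had 20.6, 39.1, 28.3 and 37 in the same order, and its start sites are 48 bp apart. OSGEP/APEX1, a tRNA-modifying enzyme and the major apurinic endonuclease of base excision repair, had 31.4, 38.7, 18.4 and 16.2. IKBIP/APAF1, with the scaffold of the apoptosome, had 24.7, 34.3, 17.5 and 20.3. PROSER1/NHLRC3 had 15.6, 31.2, 33.6 and 14.3, with its highest value in MB157 iSOX2. Across the 557 pairs bound in both MB157R iEV and MB157 iEV, fold had a rank correlation of 0.53, given as a description of 2 lists that share the sequence at each site.

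SOX2 and RBPJ summits coincided at many of the pairs. In MB157R iEV 342 pairs (34.8%) held both, against 14.4% of single promoters, and in MB157 iSOX2 444 pairs (45.1%) held RBPJ and HA-SOX2, against 18.1%. Of the 871 pairs with RBPJ in MB157R iEV, 39.3% (36 to 42.6%) held SOX2, against 30.2% of such single promoters. Of the 113 pairs without RBPJ, 13.3% (7.62 to 20.9%) held it, against 4.54% of such single promoters. In MB157 iSOX2, 57.6% (54 to 61.1%) of pairs with RBPJ held HA-SOX2, against 44.8% of such single promoters. Seen from SOX2, 95.8% (93.2 to 97.6%) of its pairs in MB157R iEV held RBPJ, against 85.8% of its single promoters. Over all pairs in MB157R iEV, 88.5% held RBPJ and 36.3% SOX2, against 47.5% and 16.7% of all single promoters. In MB157 iSOX2, 78.4% of all pairs held RBPJ and 50.7% HA-SOX2, against 40.4% and 24.3%. Each factor alone was thus also called more often at pairs, which by itself raises the share with both. The closest RBPJ and SOX2 summits of a pair were a median of 148 bp apart in MB157R iEV, against 115 bp in single promoters. They lay within 100 bp of each other at 148 of the 342 pairs (43.3%), against 44.8% of single promoters with both.

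At matched RBPJ fold the difference between the classes was not even. Among promoters of the lowest of 3 fold classes in MB157R iEV, SOX2 was found at 21.8% of 225 pairs (16.6 to 27.7%), against 19.7% of single promoters (18.2 to 21.2%). In the middle class it was 43.7% of 309 pairs (38.1 to 49.4%), against 29.1% (27.4 to 30.8%), and in the highest 46.9% of 337 pairs (41.5 to 52.4%), against 41.8% (40 to 43.6%). The intervals were apart in the middle class only. For HA-SOX2 in MB157 iSOX2 they were apart in all 3 classes, with 53.1%, 56% and 62.9% of pairs, against 36.8%, 45% and 52.3% of single promoters.

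The pairs of highest SOX2 fold in MB157R iEV were FAM227A/CBY1 (18.2), RSF1/AAMDC (16.9), ZBTB8OS/RBBP4 (14.6), MCM7/AP4M1 (13.7), CEP170/SDCCAG8 (13.5) and UFD1/CDC45 (13.2). CBY1 is an antagonist of β-catenin that is also needed for cilia, RBBP4 is a histone chaperone, and MCM7 and CDC45 are components of the replicative helicase. FAM227A/CBY1 kept a SOX2 summit in MB157R iN1-ICD, with a fold of 8.39 on 22 fragments, against 18.2 on 76 fragments in MB157R iEV, and its HA-SOX2 fold in MB157 iSOX2 was 9.56. The 3 summits lay 7 to 39 bp inside FAM227A, around the ACAATG shown above. For HA-SOX2 the highest folds were at H2AC14/H2BC14 (17.0), ZBTB8OS/RBBP4 (15.1), ANAPC13/CEP63 (11.9), ADAT2/PEX3 (10.9), NUDCD1/ENY2 (10.6) and EXOC5/AP5M1 (10.2). All of these except H2AC14/H2BC14 also had an RBPJ and a SOX2 summit in MB157R iEV. Of the 357 pairs with SOX2 in MB157R iEV, 263 (73.7%, 68.8 to 78.2%) also held HA-SOX2 in MB157 iSOX2, against 60.9% of such single promoters. HA-SOX2 was held by 50.7% of all pairs and 24.3% of all single promoters. The antibody, the cells and the source of SOX2 all differed between the 2 lists. Across these 263 pairs the rank correlation of the folds was 0.21, given as a description.

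Among gene groups, DNA repair genes took part in 31 pairs and 28 of them were bound by RBPJ in MB157R iEV, against 81.5% of the group's single promoters. They included OSGEP/APEX1, PMS2/AIMP2 with a mismatch repair protein (17.9) and MUTYH/TOE1 with a DNA glycosylase (8.56). All 27 pairs with a mitochondrial ribosomal protein were bound in that list, as were 22 of 24 with a subunit of oxidative phosphorylation, 19 of 21 with a gene of DNA replication or the cell cycle and 52 of 56 with a gene of RNA processing. These shares compare with the 88.5% of all pairs. Single promoters of these groups, in the same order, were bound at 84.6%, 77%, 84% and 81.8%, against 47.5% of all single promoters. Within these groups, pairs and single promoters were thus closer to each other in that list than over all genes. The order of the 2 classes varied with the list. For mitochondrial ribosomal proteins, pairs were higher for RBPJ in MB157R iN1-ICD (81.5% against 65.4%) and MB157 iEV (66.7% against 53.85%). They were lower for RBPJ in MB157 iSOX2 (63% against 75%), SOX2 in MB157R iEV (33.3% against 42.3%) and HA-SOX2 in MB157 iSOX2 (40.7% against 53.85%). Pairs with a cytosolic ribosomal protein were bound by RBPJ in MB157R iEV in 14 of 15 cases, against 83.3% of the group's single promoters. Their folds were high at CLHC1/RPS27A (28.7), RPS25/TRAPPC4 (25.3) and NDUFA7/RPS28 (15.5), and NDUFA7 is a complex I subunit. Of 37 pairs with a zinc finger protein 30 (81.1%) were bound by RBPJ in MB157R iEV, against 67.8% of 562 such single promoters. Mitochondrial chaperones and assembly factors took part in 12 pairs, of which 9 held SOX2 in MB157R iEV, against 7 of 21 single promoters of the group and 36.3% of all pairs. HA-SOX2 in MB157 iSOX2 was found at 7 of the 12, against 42.9% of the group's single promoters and 50.7% of all pairs. HSPD1/HSPE1, the mitochondrial chaperonin and its co-chaperonin, had RBPJ folds of 6.46, 11.1, 7.58 and 7.29 in MB157R iN1-ICD, MB157R iEV, MB157 iSOX2 and MB157 iEV, and 4.31 for SOX2.

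Pairs of clustered histone genes ran against the order of the lists. Of their 14 pairs, 4 were bound by RBPJ in MB157R iN1-ICD, 8 in MB157R iEV, 9 in MB157 iSOX2 and 12 in MB157 iEV, the shortest list, and 1 pair was bound in all 4. For all pairs the shortest list had the lowest share. The 43 single histone promoters were bound at 20.9%, 37.2%, 48.8% and 39.5% in the same order of lists, with the highest share in MB157 iSOX2. HA-SOX2 was found at 11 of the 14 in MB157 iSOX2, against 69.8% of 43 single histone promoters and 50.7% of all pairs. SOX2 was found at 8 of the 14 in MB157R iEV, against 18.6% of single histone promoters and 36.3% of all pairs. Histone genes are near-identical in sequence, and how reads were shared among copies could move these values.

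Of 18 pairs that had been listed as known head-to-head pairs, 13 met the rule and 5 did not. Among the 5, GTF2H4 and VARS2 both lie on the plus strand, and the start sites of MTF2 and TMED5 do not diverge. These were thus not head-to-head pairs in this annotation. The rest failed by the position of their canonical start sites. TAP1/PSMB9, a peptide transporter and an immunoproteasome subunit, had the highest RBPJ fold of the 13 in MB157R iEV (18.5), with 10.5 in MB157R iN1-ICD, 13.1 in MB157 iSOX2 and 12.6 in MB157 iEV. PPAT/PAICS of purine synthesis had 12.1 in MB157R iEV and 6.91 in MB157 iEV. NPAT/ATM, the histone gene activator and the damage kinase, had 8.07 and 4.31, and TK1/AFMID, with thymidine kinase, 6.6 and 6.54. SURF1/SURF2 had a summit of 7.15 in MB157R iEV and in no other list. COL4A1/COL4A2, the basement membrane collagens, held no summit although a peak of all 4 RBPJ lists touched its region.

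Of 61 genes of the NOTCH pathway, 6 were in pairs and formed 7 of them, of which 6 were bound by RBPJ in MB157R iEV and 2 in MB157 iEV. Over all pairs the shares were 88.5% and 59.7%, and over the 55 single promoters of the pathway 54.5% and 41.8%. COPA/NCSTN, with the γ-secretase subunit nicastrin, had folds of 5.85 in MB157R iN1-ICD, 11.3 in MB157R iEV, 6.67 in MB157 iSOX2 and 12.1 in MB157 iEV. PARP9/DTX3L, with a NOTCH modulator of the Deltex family, had 5.99, 6.21, 4.49 and 4.61 in the same order. U2AF1L4/PSENEN, with another γ-secretase subunit, had 5.06 in MB157R iEV and 4.42 in MB157 iSOX2 and no summit in MB157R iN1-ICD or MB157 iEV. None of the 3 held an HA-SOX2 summit, and COPA/NCSTN alone held SOX2 in MB157R iEV (3.92).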

How the data were processed

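ChIP-seq of RBPJ, SOX2 and HA was analysed in 22 libraries of 8 groups, with 12 inputs. After adaptor trimming, the authors mapped read pairs (BWA, hg38) and ran MACS2 once per group on its pooled libraries, with inputs as controls and tools and build as in the submitters' processing notes. The deposited lists give position and summit in bp, the authors' fold ratio at the summit, and deposited −log10 p and −log10 q values. Fragments at a summit were solved from fold and −log10 p. Depth per library was not analysed here.

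Canonical TSSs came from GENCODE 44. The members, gene groups and named pairs were chosen with earlier results of these data known. Named were the 6 pairs of highest fold in each of 4 lists, the 3 or 4 of highest fold with a peak in 1 of 2 compared lists only, pairs with SOX2 in MB157R iN1-ICD, listed known pairs, and up to 3 pairs per gene group. Some pairs that this rule names are not reported here. Shares carry exact binomial 95% intervals and ratios log-scale normal ones, and no p-value was computed. Alternatives changed flank, summit rule, q, single promoters, CpG content, TSS source, distance and list length. Counting was tested on simulated summits. Tables were handled with pandas 2.3.3 and numpy 2.4.6 in Python 3.11.15, intervals with scipy 1.17.1, sequence with pysam 0.24.0 and plots with matplotlib 3.10.9.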

Additional observations from a re-analysis of the deposited data

How the results depend on the processing

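The ratio of the share of bidirectional over single promoters stayed above 1 in the 6 larger lists under every alternative but one. Values are given for RBPJ in MB157R iN1-ICD, MB157R iEV, MB157 iSOX2 and MB157 iEV, SOX2 in MB157R iEV and HA-SOX2 in MB157 iSOX2. With flanks of 250 bp they were 2.68, 2.32, 2.66, 2.8, 2.88 and 2.74, and with 1000 bp 1.8, 1.64, 1.67, 1.75, 1.87 and 1.73. Counting any overlapping peak gave 1.86, 1.63, 1.69, 1.81, 1.95 and 1.77 (1.775 for HA-SOX2), and CpG islands alone 1.53, 1.35, 1.4, 1.48, 1.71 and 1.63. A −log10 q of at least 5 gave 2.26, 2.0 (1.998), 2.06 and, for HA-SOX2, 1.74. Single regions as long as the median pair gave 1.92, 1.75 (1.755), 1.8, 1.86 (1.865) and, for HA-SOX2, 1.85. Windows per TSS, added after seeing the data, gave 1.86, 1.66 (1.655), 1.69, 1.78 and, for HA-SOX2, 1.77. Distances up to 300 bp gave 1.92 and 1.81 in the MB157R RBPJ lists and 1.95 for SOX2, and the gene record's 5′ end 1.92 for RBPJ in MB157R iEV. Lists of equal length gave 2.22 and 2.06 in the MB157R RBPJ lists and 0.807 for HA-SOX2, the one value below 1; the cause was not tested. Isolated single promoters, and pairs without readthrough or shared genes, moved none of the 6 beyond its interval.

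The share of MB157 iEV pairs bound again in MB157R iEV was 97.2% by overlap, 90.3% at the stricter q and 81.8% with equal lists. In MB157 iSOX2 it was 95.3%, 87.5% and 86.2%, and 95.4% with 1000 bp flanks. The share of MB157R iEV pairs bound again in iN1-ICD was 58.5% at the stricter q, 70% (70.03) with equal lists and 81.3% with 1000 bp flanks, and that of MB157 iEV pairs in MB157R iN1-ICD 71.9% and 68.3% under the first 2 of these. No paired analysis was possible because each list pools its replicates, and for the same reason no replicate could be left out.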
